A study of Mus musculus with 2 samples.

Results

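The standard proteasome genes of stimulated mouse macrophages were described from the levels of 45 genes in polyadenylated RNA. They are the protein-coding genes whose symbol begins with Psma, Psmb, Psmc, Psmd, Psme, Psmf or Psmg followed by a digit, without the inducible subunits Psmb8, Psmb9 and Psmb10 and the inducible cap subunits Psme1 and Psme2. The rule uses names alone and took 45 of the 55536 genes in the deposited gene tables, of which 21978 are protein-coding. By role, 41 of the 45 belong to the standard complex, as 7 alpha-ring subunits, 7 beta-ring subunits, 6 ATPases, 11 non-ATPase subunits of the regulatory particle, 3 alternative caps or cap-like regulators and 7 assembly factors. The other 4 matched the symbol pattern and have no place in the standard complex (Psma8, Psmb11, Psmc3ip and Psme2b). A further 4 symbols that fit the pattern are annotated as pseudogenes and were left out. The highest of them had 1 expected count, in replicate 2.

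The series holds 1 group of 2 libraries, labelled biological replicates 1 and 2, of bone marrow-derived macrophages from C57BL/6J mice, each a biosample of its own with the same donor record. Both were exposed for 300 min to an agent dosed at 100 ng/mL. Their descriptions call it Lipid A, while elsewhere in the labels it is a lipoprotein, so it is called the stimulus here. No unstimulated macrophages were analysed here, so no value below measures a response to the stimulus. With 1 group, levels are given per library or as mean ± SD over the 2 libraries, and the libraries are compared by size of difference alone, replicate 1 over replicate 2, with no p-value. It is not stated whether the 2 cultures were raised apart, so their spread may be partly technical.

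Replicate 1 had 38078399 expected counts in all and replicate 2 had 63705317, and 12226 genes had enough counts for a ratio. All 8 macrophage markers listed (among them Adgre1, Cd68 and Csf1r) were at 1 TPM or more in both libraries. The T cell, B cell, dendritic cell, red cell and fibroblast lists each had 0 of 4 markers at that level in both. Siglech, of the dendritic list, had 1.49 TPM in replicate 1 and 0.22 in replicate 2. The macrophage markers summed to 15673 TPM in replicate 1 and 21714 in replicate 2, most of it Lyz2 (10495 and 13567 TPM) and Cd68 (2496 and 5400.0 TPM). They did not all go one way. Adgre1 (748 and 479 TPM), Fcgr1 (481 and 381 TPM) and Mertk (195 and 152 TPM) were higher in replicate 1, whereas Lyz2, Cd68, Csf1r, Itgam and Cd14 were lower there. The sums of the other marker lists were all higher in replicate 1, in the other direction from the macrophage sum. Those of the T cell, B cell, dendritic cell, red cell and fibroblast lists were at most 2.4 TPM. The 8 neutrophil markers summed to 516 TPM in replicate 1 and 26.8 in replicate 2, most of it S100a8, S100a9 and Ngp, with Ly6g at 0 in both and Mmp8 at 8.71 and 8.15 TPM. The 4 platelet markers summed to 767 TPM in replicate 1 and 107 in replicate 2, nearly all of it Pf4 (753 and 105 TPM). Of the other platelet markers, Ppbp had 11.8 and 1.68 TPM, Itga2b 1.35 and 0.09 TPM, and Gp9 0.66 and 0 TPM. TPM divides the reads of each gene by the length of its transcripts and sets every library to the same total, so levels can be compared between genes.

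The proteasome degrades proteins tagged with ubiquitin. Its core is a barrel of stacked rings: outer rings of alpha subunits form the gate, and inner rings of beta subunits hold the proteolytic sites. The regulatory particle, built of ATPases and non-ATPase subunits, binds the ubiquitin chain, removes it, unfolds the substrate and feeds it through the gate. In cells of the immune system, inducible beta subunits replace the standard active-site subunits and form the immunoproteasome, which changes the peptides available for antigen presentation. In the standard complex each subunit is present in a fixed number of copies, whereas the assembly factors leave before the complex is complete.

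As a set, the proteasome genes were among the more abundant messages of these macrophages. The median of the 45 genes was 74.9 TPM in replicate 1 and 52.3 in replicate 2, against 15.1 and 14.5 TPM for the 9347 protein-coding genes at 1 TPM or more in both libraries. Together they took 0.418% of all TPM in replicate 1 and 0.345% in replicate 2. Of the 45 genes, 42 were at 1 TPM or more in both libraries, 37 at 10 TPM or more, and 9 at 100 TPM or more. Those 9 were Psmb6, Psmd8, Psma6, Psma3, Psma4, Psmb2, Psma5, Psmc3 and Psmd2. The classes were ordered alike in both libraries at their ends: the alpha ring had the highest median (161 and 135 TPM in replicates 1 and 2) and the assembly factors the lowest (11.8 and 9.21 TPM). Over the 41 standard members the libraries ranked the genes alike (Spearman 0.891 and Pearson 0.952 on log2 TPM, n = 41 genes of the same 2 libraries, which are not independent replicates).

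**Figure D1:**
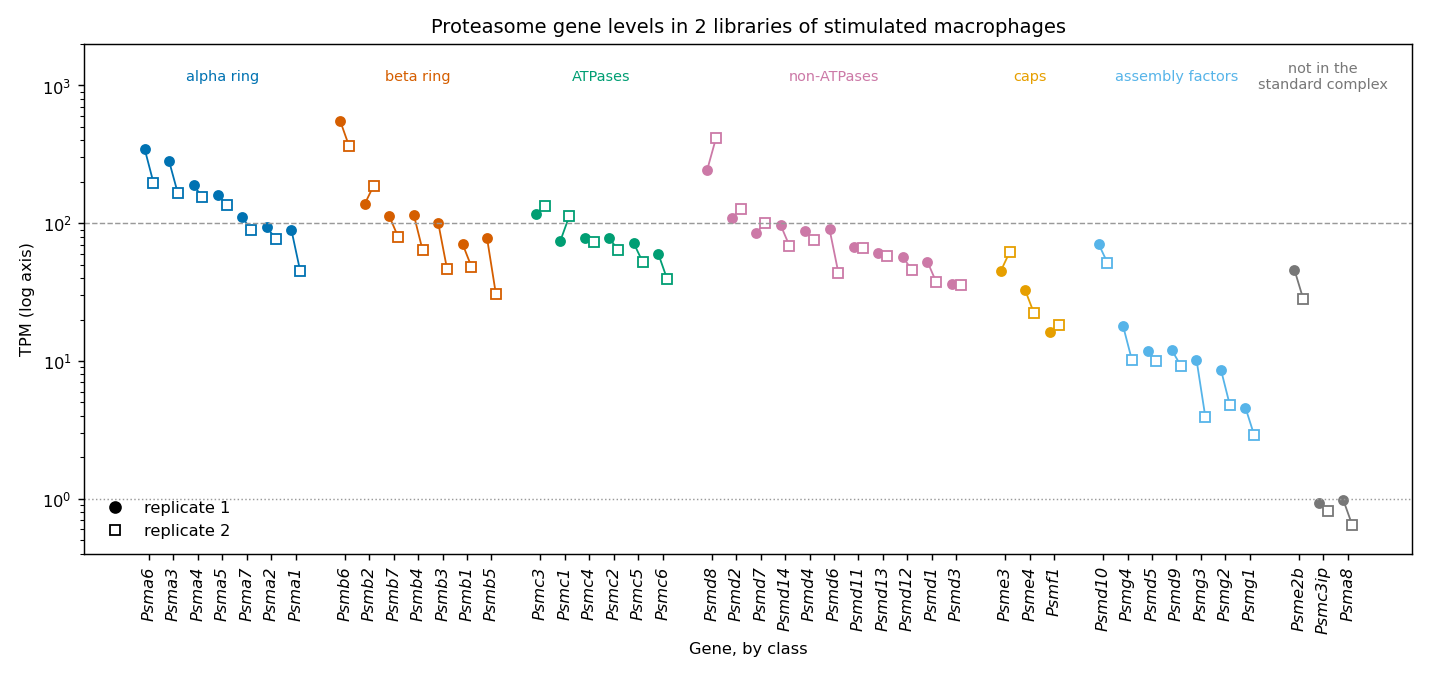
TPM on a log axis of 44 proteasome genes by class, with replicate 1 as filled circles and replicate 2 as open squares, joined per gene. The dashed line marks 100 TPM and the dotted line 1 TPM; 9 genes lie above the dashed line in both libraries, 6 of the 7 assembly factors lie under 20 TPM, and Psmb11, listed at 0 in both libraries, is not drawn.

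The alpha ring, which holds the gate, had all 7 subunits above 40 TPM in each library. Psma6 (alpha1, chr12:55384222-55418454, + strand, mm10) was highest at 347 TPM in replicate 1 and 197 in replicate 2. Psma3 (alpha7, chr12:70974621-70996347, + strand) had 282 TPM in replicate 1 and 164 in replicate 2 in the gene table, and the second deposited quantification gave 166 and 89.7 TPM. Psma3 is thus the member whose level depends most on the quantification among the standard genes. Of the 31-base words in its leading transcript, 79.0% also occur in other genes, above all in Gm13835, which had 10.5 TPM in replicate 1 and 3.85 in replicate 2. Psma4 (alpha3, whose tail is central to the closed gate in yeast) had 189.6 TPM in replicate 1 and 154 in replicate 2, and Psma5 (alpha5) had 161 and 135 TPM. Psma7 (alpha4) had 110.1 and 89.0 TPM, and Psma2 (alpha2) had 93.6 and 76.8 TPM. Psma1 (alpha6) was lowest by its mean, with 89.5 TPM in replicate 1 and 44.9 in replicate 2. All 7 were higher in replicate 1 by TPM, and the highest exceeded the lowest by 3.88-fold in replicate 1 and 4.39-fold in replicate 2.

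The beta ring was the most uneven class of the finished complex, with an SD of log2 TPM over its 7 genes of 0.99 in replicate 1 and 1.25 in replicate 2. Psmb6 (beta1, chr11:70525367-70527858, + strand) carries the caspase-like site. By its mean it was the highest of all 45 genes, with 549.6 TPM in replicate 1 and 362 in replicate 2 (456 ± 132, SD, n = 2). In replicate 2 Psmd8 was higher, at 416 TPM. Psmb5 (beta5, chr14:54614119-54618022, - strand) carries the chymotrypsin-like site and is the main target of proteasome inhibitors. It was the lowest of the ring by its mean, with 77.6 TPM in replicate 1 and 30.6 in replicate 2 (54.1 ± 33.2, SD, n = 2). In replicate 1 Psmb1 was lower. The messages of Psmb6 and Psmb5 differed by 7.09-fold in replicate 1 and 11.8-fold in replicate 2. Equal copies of the 2 proteins hold only for a core without inducible subunits. Psmb7 (beta2, which carries the trypsin-like site, chr2:38588036-38644087, - strand) lay between them, with 113 TPM in replicate 1 and 79.8 in replicate 2. Of the ring's subunits without an active site, Psmb2 (beta4) had 138 and 187 TPM, Psmb4 (beta7) 116 and 64.1 TPM, Psmb3 (beta3) 101 and 46.9 TPM, and Psmb1 (beta6) 70.5 and 48.4 TPM in replicates 1 and 2. Psmb2 was the only ring subunit higher in replicate 2. Psmb5 shares 74.0% and Psmb3 66.8% of the 31-base words of their leading transcripts with other genes, but the closest of those (Gm3375 for Psmb5 and AC114990.1 for Psmb3) had at most 0.26 TPM.

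The windows around the transcription starts of Psmb6 and Psmb5 are shown because both hold the letters TGACNNNGC, the core of the antioxidant response element that Nfe2l1 and Nfe2l2 read together with small Maf proteins, while their messages lay at opposite ends of the ring. Each runs from 250 bases before to 50 bases after the RefSeq start (GRCm38.p6), 5′ to 3′ on the strand of the gene, with the match in capitals. The Psmb6 window is chr11:70525107-70525406 (+ strand) and its match begins at position -9 from the start. The Psmb5 window is chr14:54617946-54618245 (- strand) and its match begins at position -47.
Psmb6: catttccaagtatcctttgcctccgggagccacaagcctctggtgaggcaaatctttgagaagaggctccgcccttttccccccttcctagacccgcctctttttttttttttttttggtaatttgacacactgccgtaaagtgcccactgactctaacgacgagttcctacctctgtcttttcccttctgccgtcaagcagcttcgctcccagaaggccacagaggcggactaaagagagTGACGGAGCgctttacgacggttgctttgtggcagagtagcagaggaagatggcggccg
Psmb5: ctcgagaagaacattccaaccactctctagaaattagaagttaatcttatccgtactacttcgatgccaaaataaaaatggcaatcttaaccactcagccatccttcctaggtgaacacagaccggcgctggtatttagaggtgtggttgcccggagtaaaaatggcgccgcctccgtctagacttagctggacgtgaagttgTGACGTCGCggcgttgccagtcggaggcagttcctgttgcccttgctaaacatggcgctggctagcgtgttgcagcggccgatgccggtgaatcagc
Across the standard members with a RefSeq window (36 windows of 34 genes), 6 windows or 16.7% held TGACNNNGC on either strand, against 14.5% of 9583 windows of expressed protein-coding genes and 12.4% of all 32851 windows. The share among the members was thus close to that of other expressed genes. The 6 were Psmb5, Psmb6, Psmc6, Psmd9, Psmd12 and Psme4. A match shows only that these letters are in the window.

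The ring carries its proteolytic sites in Psmb5, Psmb6 and Psmb7, and each has an inducible counterpart. For beta5 the inducible form was the higher: Psmb5 stood at 0.173 of Psmb8 in replicate 1 and at 0.0801 of it in replicate 2 by TPM, where Psmb8 had 449 and 382 TPM. For beta2 the same order held, with Psmb7 at 0.417 of Psmb10 in replicate 1 and 0.305 in replicate 2, where Psmb10 had 271 and 262 TPM. For beta1 the order was the opposite, with Psmb6 4.24-fold above Psmb9 in replicate 1 and 3.90-fold above it in replicate 2, where Psmb9 had 129.8 and 92.9 TPM. The mean log2 ratio of the 3 standard over the 3 inducible subunits was -0.57 in replicate 1 and -1.13 in replicate 2 (-0.85 ± 0.40, SD, n = 2). These ratios take all transcripts of a gene. Protein-coding transcripts held 70.5% and 58.8% of Psmb10 TPM in replicates 1 and 2, against 99.8% and 99.7% for Psmb7. The coding transcript Psmb8-203 held 74.8% and 84.9% of Psmb8 TPM. Psmb10-201, also coding, was still above Psmb7 (191 and 154 TPM), and Psmb8-203 above Psmb5 (336 and 324 TPM). Ratios over coding transcripts alone were not computed. The sign of each pair was the same in both libraries, and without unstimulated macrophages it cannot be said whether it differs from the resting state.

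**Figure D2:**
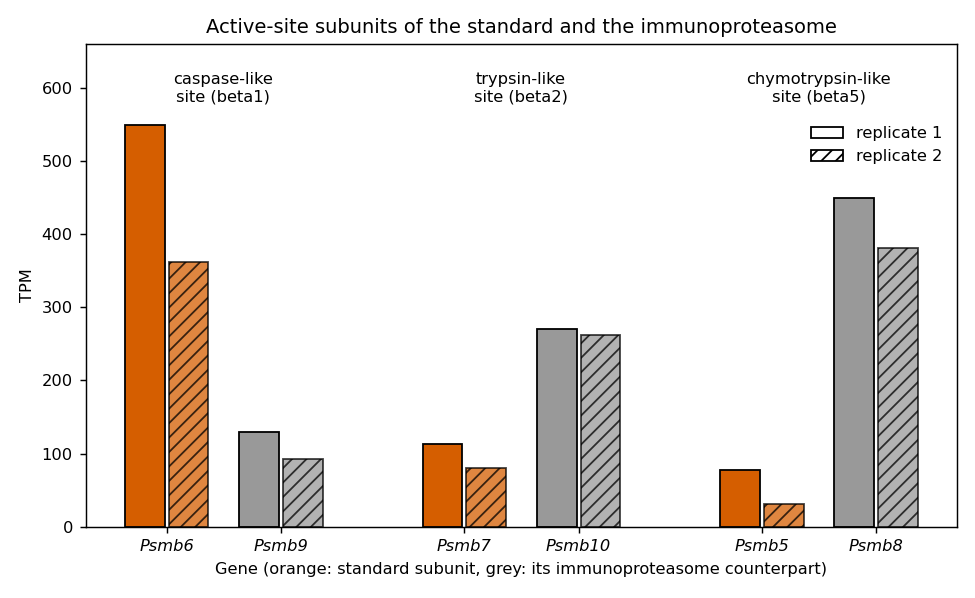
TPM of the 3 standard active-site subunits (orange) and their immunoproteasome counterparts (grey), with replicate 1 as plain bars and replicate 2 as hatched bars. Psmb6 stands above Psmb9 in both libraries, whereas Psmb7 and Psmb5 stand below Psmb10 and Psmb8 in both.

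The ATPases, which form the ring that unfolds substrates, were the most even class in the first quantification, with an SD of log2 TPM of 0.32 in replicate 1 and 0.67 in replicate 2. In the second quantification the alpha ring was more even than the ATPases by SD in replicate 2. The highest and lowest ATPases differed by 1.96-fold in replicate 1 and 3.41-fold in replicate 2 in the first quantification. Psmc3 (Rpt5, chr2:91054009-91066369, + strand) was highest by its mean, with 117 TPM in replicate 1 and 134 in replicate 2, and Psmc1 (Rpt2) had 74.9 and 113 TPM. Together with Psmc4 (Rpt3), at 78.7 and 73.4 TPM, these are the ATPases whose tails dock into the alpha ring and open the gate. Psmc2 (Rpt1) had 78.0 and 63.5 TPM, Psmc5 (Rpt6) 71.3 and 52.3 TPM, and Psmc6 (Rpt4) 59.9 and 39.3 TPM in replicates 1 and 2. The summed level of the 6 ATPases was nearly equal in the libraries, at 479.9 TPM in replicate 1 and 475 in replicate 2, while that of the alpha ring was 1273 and 862 TPM and that of the beta ring 1165 and 819 TPM. The near equality was not kept in the second quantification. There Psmc1 had 74.6 and 139 TPM and Psmc3 107 and 174 TPM, and the other ATPases were lower in replicate 2. Transcripts annotated as protein-coding held 96.3% of the first ATPase sum in replicate 1 and 83.4% in replicate 2.

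Among the non-ATPase subunits 1 gene stood apart. Psmd8 (Rpn12, a lid subunit that in yeast is the last to join before the lid binds the base, chr7:29174188-29180701, - strand) had 245 TPM in replicate 1 and 416 in replicate 2. That was 3.46-fold and 6.85-fold above the geometric mean of the other 10 non-ATPases in replicates 1 and 2. Psmd2 (Rpn1, a scaffold of the base that receives ubiquitin and shuttle proteins) followed with 108 TPM in replicate 1 and 128 in replicate 2, and the other base scaffold, Psmd1 (Rpn2), had 52.6 and 37.4 TPM. The deubiquitinase subunit Psmd14 (Rpn11) had 96.9 and 68.6 TPM and its partner Psmd7 (Rpn8) had 84.9 and 100.1 TPM. The ubiquitin receptor Psmd4 (Rpn10) had 88.2 TPM in replicate 1 and 74.97 in replicate 2. The remaining lid subunits were Psmd6 (Rpn7) at 90.3 and 43.7 TPM, Psmd11 (Rpn6) at 67.6 and 66.1 TPM, Psmd13 (Rpn9) at 60.8 and 58.1 TPM, Psmd12 (Rpn5) at 56.7 and 45.9 TPM, and Psmd3 (Rpn3) at 36.35 and 35.8 TPM. By TPM, Psmd3, Psmd11 and Psmd13 differed least between the libraries, with SDs of 0.396, 1.07 and 1.92 TPM. By the log2 ratio of scaled counts, described below, Psmd2 and Psmd4 differed least, at 0.03 each.

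Windows of Psmd2, Psmd6 and Psmc1 are shown because the letters CCGGAAG, a sequence read by ETS-family transcription factors, were more frequent in the regulatory particle than in the rings. They were in 6 of 9 non-ATPase windows and 4 of 6 ATPase windows (5 genes, as Psmc2 has 2 windows), in 1 of 8 alpha-ring windows and in 0 of 4 beta-ring windows, and in 2 of 3 cap windows and 2 of 6 assembly factor windows. These are counts over few windows, with no test, and 3 beta-ring genes had none. Over all standard members 15 of 36 windows or 41.7% held it on either strand, against 19.8% of the windows of expressed protein-coding genes and 8.86% of all windows. The windows again run from 250 bases before to 50 bases after the start, with the match in capitals, read as CTTCCGG where it lies on the other strand. They are chr16:20651402-20651701 (+ strand) for Psmd2, chr14:14120896-14121195 (- strand) for Psmd6 and chr12:100109952-100110251 (+ strand) for Psmc1, and the matches begin at positions -26, -45 and -28.
Psmd2: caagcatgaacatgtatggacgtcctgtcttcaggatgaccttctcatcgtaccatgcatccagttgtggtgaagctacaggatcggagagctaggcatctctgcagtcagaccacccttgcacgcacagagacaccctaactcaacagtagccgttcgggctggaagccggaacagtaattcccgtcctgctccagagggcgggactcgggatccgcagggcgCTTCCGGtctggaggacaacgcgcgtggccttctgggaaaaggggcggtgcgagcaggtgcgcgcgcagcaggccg
Psmd6: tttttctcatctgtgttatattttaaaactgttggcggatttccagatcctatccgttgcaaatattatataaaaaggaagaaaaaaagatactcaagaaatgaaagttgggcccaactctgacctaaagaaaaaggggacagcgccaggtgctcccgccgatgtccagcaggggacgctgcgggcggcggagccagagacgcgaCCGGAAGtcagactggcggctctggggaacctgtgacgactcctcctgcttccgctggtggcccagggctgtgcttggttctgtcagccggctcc
Psmc1: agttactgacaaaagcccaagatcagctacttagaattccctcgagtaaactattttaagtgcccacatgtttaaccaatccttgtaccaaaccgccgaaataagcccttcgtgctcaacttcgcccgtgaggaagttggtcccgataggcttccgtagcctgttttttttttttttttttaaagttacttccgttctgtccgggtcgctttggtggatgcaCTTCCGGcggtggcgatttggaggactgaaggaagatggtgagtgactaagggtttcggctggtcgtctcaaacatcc
The other motifs searched were CCAAT, in 33.3% of standard member windows and 37.1% of those of expressed genes, GGGCGG, in 55.6% and 63.5%, and the NF-kB-like letters GGGNNTTCC, in 2.78% and 7.88%. Matches to different motifs could overlap, and the motifs were chosen with the levels known. The windows of Psmb6 and Psmd8, the 2 highest members by mean TPM, had no CCGGAAG. No window was used here for Psma8, Psmb1, Psmb2, Psmb7, Psmc3, Psmd3, Psmd7 and Psmg2.

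The 31 ring and regulatory particle subunits have a fixed ratio in the standard complex. Their messages spanned a 15.1-fold range in replicate 1 and a 13.6-fold range in replicate 2. Psmd3 or Psmb5 stood at the low end and Psmb6 or Psmd8 at the high end. In the order of mean TPM, few neighbours were apart by more than the spread between the libraries. The 7 highest genes down to Psma5 were separated from the rest, since the lower of the Psma5 values (135 TPM) was just above the higher of the Psmc3 values (134 TPM), and Psmd3 lay under the range of Psmd1 (37.4 to 52.6 TPM). The first of these gaps was not in the second quantification, where Psmc3 had 107 and 174 TPM and Psma5 149 and 126 TPM in replicates 1 and 2. Between all other neighbours the ranges of the libraries overlapped. The SD of log2 TPM over the 31 genes was 0.84 in replicate 1 and 0.95 in replicate 2. That was wider than over the 7 chaperonin subunits matched by symbol (0.23 and 0.42), and less than over the 80 detected cytosolic ribosomal protein genes (1.04 and 1.13) and the 78 mitochondrial ones (1.10 and 1.14). The 36 detected subunits of respiratory complex I had SDs of 0.91 and 1.01. The lists compared were taken by symbol alone. Related genes that fit a pattern were not set aside in them, as was done for the 31 genes, so the sets are not alike.

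The 3 caps and cap-like regulators had a lower median, 32.5 TPM in replicate 1 and 22.2 in replicate 2, than the regulatory particle (78.0 and 66.1 TPM), although Psme3 lay within the range of the particle's subunits. Psme3 (PA28 gamma, a nuclear cap) had 45.0 TPM in replicate 1 and 61.6 in replicate 2. Psme4 (PA200, a large nuclear cap) had 32.5 TPM in replicate 1 and 22.2 in replicate 2, and Psmf1 (PI31, an inhibitor of the core particle in the test tube) had 16.2 and 18.3 TPM. For comparison, the inducible cap subunit Psme1 (PA28 alpha) had 451 TPM in replicate 1 and 621 in replicate 2. Its partner Psme2 (PA28 beta) had 984 and 526 TPM. The 185-base intron-retaining transcript Psme2-203 held 160 TPM of this in replicate 1, from 28.7 expected counts, and 7.59 TPM in replicate 2. By TMM-scaled counts Psme2 was 1.36-fold higher in replicate 1. Both inducible cap subunits lay above all 3 members of the class in each library.

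The assembly factors, which act on intermediates and are released, were the lowest class. The mean log2 TPM of the assembly factors minus that of the rings was -3.43 in replicate 1 and -3.52 in replicate 2, and their median stood at percentiles 43.3 and 39.0 of the expressed protein-coding genes, against 87.6 and 83.9 for the rings. Psmg1 and Psmg2 (PAC1 and PAC2), which form a pair that guides the alpha ring, had 4.59 and 8.64 TPM in replicate 1 and 2.89 and 4.81 TPM in replicate 2. Psmg3 and Psmg4 (PAC3 and PAC4), the second such pair, had 10.2 and 17.9 TPM in replicate 1 and 3.94 and 10.2 TPM in replicate 2. The 4 genes rest on few counts, from 88 to 167 per library. Of the factors that help build the ATPase base, Psmd10 (gankyrin) was the exception to the low levels, with 70.6 TPM in replicate 1 and 51.6 in replicate 2. Psmd5 (S5b) had 11.8 and 9.96 TPM and Psmd9 (p27) had 11.95 and 9.21 TPM. Psmd9 overlaps Gm26745, a long noncoding RNA gene on the other strand, over 1849 exonic bases, and as the sources used here do not say whether reads were counted by strand, reads of the 2 cannot be told apart. A chaperone of beta-ring assembly outside the member list, Pomp, had 380.3 TPM in replicate 1 and 252 in replicate 2.

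The 4 genes with no place in the standard complex were low, with 1 exception. Psma8, the testis form of alpha4, had 0.98 TPM in replicate 1 and 0.65 in replicate 2, from 29 and 36 expected counts. Psmb11, the beta5 form of thymic cortical epithelium, had 0 counts in either library, and a count of 0 leaves room for 0.0562 TPM in replicate 1 and 0.0337 in replicate 2 (3 counts, counting error only). The second quantification did not list it at 0 but gave 0.047 and 0.055 TPM, the value of replicate 2 above that limit. Psmc3ip, a meiotic recombination factor named after an interaction with Psmc3, had 0.93 and 0.82 TPM. Psme2b, an intronless copy of Psme2, was listed at 46.1 TPM in replicate 1 and 28.4 in replicate 2, while the second quantification gave 64.8 and 81.4 TPM, in the opposite order. Of its 31-base words 78.4% are shared with other genes and 76.5% with Psme2 alone, which was far higher, so how much of its level is its own was not resolved.

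Between the libraries, 14 of the 44 members with enough counts differed by 1.5-fold or more in TMM-scaled expected counts, which is 31.8%, against 35.8% of all 12226 genes. The share of members past that size was therefore near the background. Of the 14, 11 were higher in replicate 1, against 19.1% of all genes in that direction, and 3 were higher in replicate 2, against 16.7%. The median log2 ratio was 0.25 over the members and 0.01 over all genes, and the interquartile range of all genes was -0.41 to 0.45. The alpha ring had 7 of 7 members above 0 with 3 past 1.5-fold, the beta ring 6 of 7 with 4 past it in either direction, and the assembly factors 7 of 7 with 3 past it. The ATPases were split 3 of 6 with 1 past it, and of the 11 non-ATPases 7 lay above 0 with 2 past it, against 50.7% of all genes above 0. With the trend by GC content and transcript length removed, the alpha ring had 5 of 7 above 0 and 0 past 1.5-fold, and the assembly factors 6 of 7 and 2. Psma2 (-0.50), Psma4 (-0.16) and Psmd10 (-0.24) then lay below 0. In bulk RNA, fewer cells of a type and less RNA per cell cannot be told apart. The summed neutrophil and platelet markers given above, the latter nearly all Pf4, were higher in replicate 1. The summed macrophage markers were lower there, although Adgre1, Fcgr1 and Mertk were higher. The part of these markers in the difference of the members was not tested.

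The 11 members higher in replicate 1 were led by Psmg3 and Psmb5. Psmg3 had 159 expected counts in replicate 1 and 106.9 in replicate 2 although replicate 2 was the deeper library, a log2 ratio of 1.12; 24.4% of its 31-base words are shared with the overlapping gene Gm26938. Psmb5 had 1199 and 822 expected counts, a log2 ratio of 1.10. Then came Psmb4 at 0.94, Psmd6 at 0.84, Psmb3 and Psmc6 at 0.83, Psma1 at 0.80, Psmg2 at 0.61, Psma6 and Psma3 at 0.60 and Psmg4 at 0.59 on the log2 scale. The 3 members higher in replicate 2 were Psmd8 at -0.96 (6779 and 19523 expected counts in replicates 1 and 2), Psmb2 at -0.68 and Psme3 at -0.66. Each class that had more than 1 such member, except the assembly factors and the alpha ring, thus held differences in both directions.

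**Figure D3:**
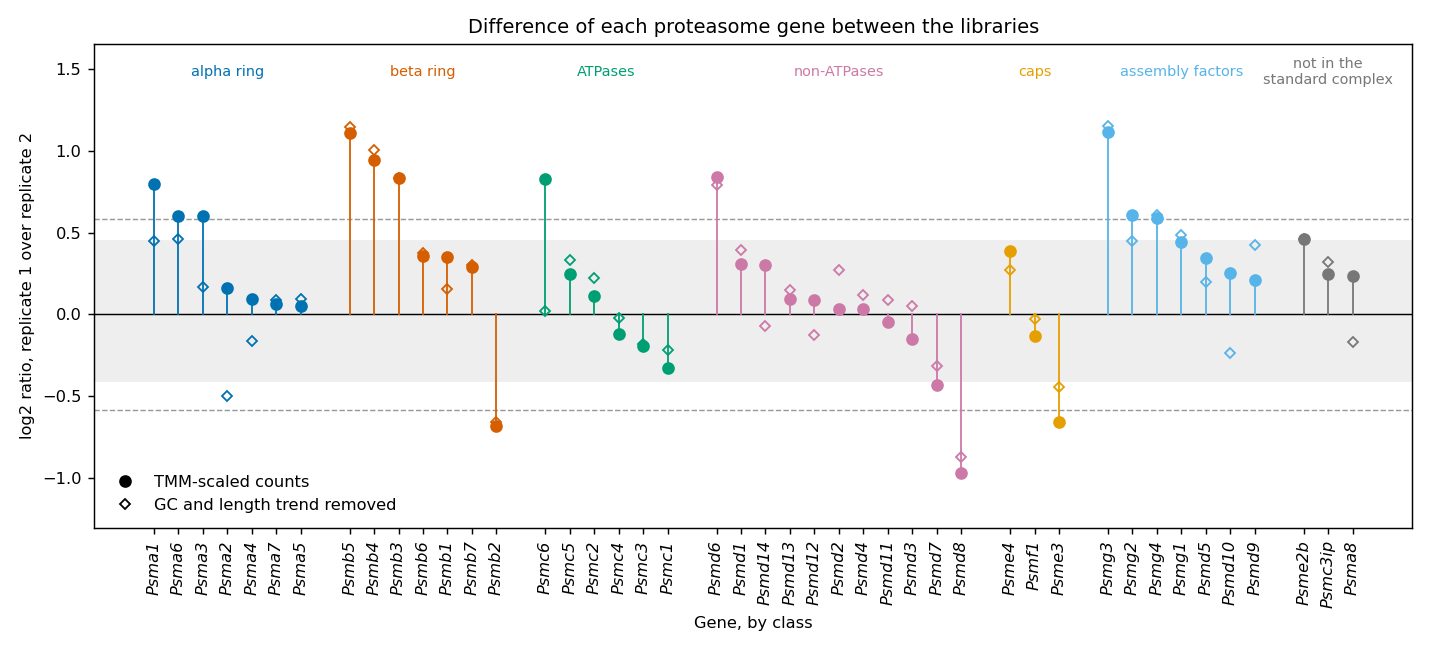
Log2 ratio of replicate 1 over replicate 2 for the 44 members with enough counts, by class, from TMM-scaled counts (filled circles) and after a trend with GC content and transcript length was removed (open diamonds). Dashed lines mark 1.5-fold and the grey band the interquartile range of all 12226 genes; Psmb5, Psmb4, Psmb3, Psmd6, Psmg3 and, barely, Psmg4 lie above the upper line and Psmd8 and Psmb2 below the lower line by both measures.

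The differences varied with base composition. The genes were split into 5 groups of equal size by GC content. In the group lowest in GC the median log2 ratio was 0.34 over its 8 members and 0.49 over all its genes. In the next group it was 0.35 over 8 members and 0.05 over all genes, in the group with 48.0% to 51.6% GC it was 0.06 over 15 members and -0.14 over all genes, and in that with 51.6% to 55.5% GC it was 0.03 over 9 members and -0.17 over all genes. The group highest in GC went against the trend of all genes, with 0.73 over its 4 members and -0.14 over all its genes. The members lay above the other genes in 4 of the 5 groups. After removal of the trend with GC content and transcript length, 8 members stayed past 1.5-fold, against 29.9% of all genes, and the median over the members was 0.16. Psmc6 (37.0% GC) moved to 0.02 and Psma3 (43.7% GC) to 0.17, whereas Psmb5 (56.6% GC) stayed at 1.14 and Psmd8 (52.4% GC) at -0.87. Psmb3, Psmb4, Psmb5, Psmd6, Psmd8 and Psmg3 stayed past 1.5-fold under each of the 7 other ways of scaling and filtering.

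Most of the proteasome RNA was in transcripts annotated as protein-coding, 92.5% of the members' summed TPM in replicate 1 and 90.7% in replicate 2. The rest was in transcripts annotated to undergo nonsense-mediated decay (3.11% and 3.94% in replicates 1 and 2), to retain an intron (3.78% and 3.34%) or as processed transcripts with no reading frame (0.60% and 2.00%). Of the 42 members at 1 TPM or more, the coding share was at least 10 percentage points lower in replicate 2 for 5 genes, which is 11.9%, against 12.4% of 9347 expressed protein-coding genes. It was at least 10 points lower in replicate 1 for 1 gene, against 8.97% of the expressed genes. The first share was near the background. The second, 2.38%, was below it but rests on 1 gene. In the second quantification the counts were 7 members lower in replicate 2 and 0 lower in replicate 1, against 1675 and 723 of the 9347 expressed genes.

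The 5 members lower in replicate 2 in the first quantification were mostly subunits of the regulatory particle. For Psmc6 the transcript Psmc6-208, annotated to nonsense-mediated decay, held 0.59% of the gene's TPM in replicate 1 and 34.8% in replicate 2. For Psmd2 the 433-base transcript Psmd2-208, of the same kind, held 0.33% in replicate 1 and 29.1% in replicate 2. For Psmc1 the processed transcript Psmc1-203 held 2.12% in replicate 1 and 34.9% in replicate 2, and for Psmb4, the only ring subunit of the 5, the intron-retaining transcript Psmb4-202 held 3.18% and 36.2%. These alternative transcripts are shorter than the coding ones, so few counts made a large share of TPM: Psmd2-208 had 1.49 expected counts in replicate 1 and 292 in replicate 2, beside 7088 and 9939 for the coding Psmd2-201. The TPM of Psmd2 was accordingly lower in replicate 1 (108 against 128 TPM in replicate 2) while its count ratio was near 0 at 0.03 on the log2 scale.

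Psmd13 and Psma3 had less than 50% of their TPM in coding transcripts in both libraries. Psmd13 had 44.4% in replicate 1 and 26.5% in replicate 2, with the decay-annotated Psmd13-211 at 40.9% and 45.7%. Psma3 had 35.7% in replicate 1 and 47.5% in replicate 2, the reverse order, and its decay-annotated transcript Psma3-201 led in replicate 1 with 34.1%. In the second quantification the coding share of Psma3 was 9.60% in replicate 1 and 18.6% in replicate 2, with the intron-retaining Psma3-203 leading in both. How Psma3 reads divide among transcripts was therefore not settled by these tables.

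**Figure D4:**
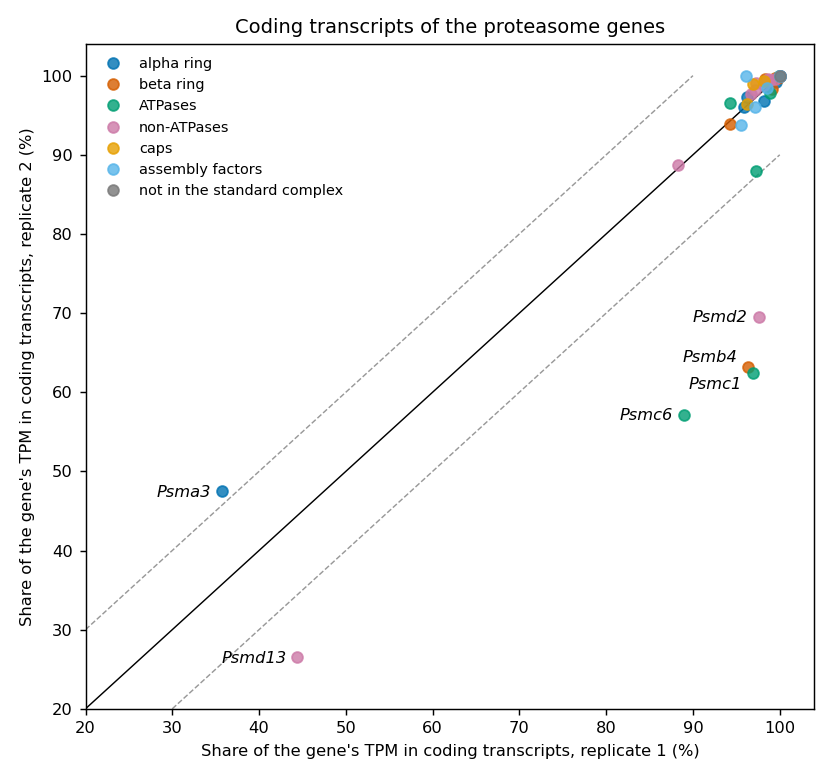
Share of each gene's TPM in transcripts annotated as protein-coding, replicate 1 on the x axis and replicate 2 on the y axis, in percent, for the 42 members at 1 TPM or more in both libraries, coloured by class. The solid line marks equal shares and the dashed lines a difference of 10 percentage points; Psmd2, Psmb4, Psmc1, Psmc6 and Psmd13 lie below the lower dashed line and Psma3 above the upper one.

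Along the genome, 7 of the 45 members (15.6%) start within 1000 bases of a gene on the other strand that runs away from them, against 11.4% of the expressed protein-coding genes. Psmc2 has Dnajc2 at 32 bases, Psma2 has Mrpl32 at 75 bases, and Psmb1 has the TATA-binding protein gene Tbp at 137 bases. The partners were not at a common level: Dnajc2 had 54.2 TPM in replicate 1 and 32.1 in replicate 2, whereas Ss18l1, beside Psma7, had 1.47 and 1.08 TPM. Exons of Psmc3, Psma4, Psma5, Psmb7, Psmd13, Psmd3 and Psmc3ip, besides Psmd9, overlap a gene on the other strand, by 17 bases for Psmd3 and up to 405 bases for Psmb7 (with Nek6), so some of their reads could belong to that gene.

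A list of 27 further genes of the pathway, other than the inducible subunits, was matched for 26, and all 26 were at 1 TPM or more in both libraries (Paaf1 was not analysed here). Pomp was highest and Ddi2, the protease that activates Nfe2l1, was lowest at 5.10 TPM in replicate 1 and 6.46 in replicate 2. The regulatory particle subunits without a Psm symbol were Sem1 (Rpn15), at 72.7 and 57.7 TPM, and the ubiquitin receptor Adrm1 (Rpn13), at 36.9 and 35.8 TPM. The unfoldase Vcp, which acts before the proteasome, had 146 and 107 TPM. Of the transcription factors that drive proteasome genes when the proteasome is impaired or cells are oxidized, Nfe2l1 had 81.0 TPM in replicate 1 and 110.1 in replicate 2, and Nfe2l2 had 75.2 and 182 TPM. Past 1.5-fold in counts were 6 of the 26, or 23.1%, against 35.8% of all genes: Ngly1 (0.77), Maff (0.61) and Usp14 (0.59) higher in replicate 1, and Nfe2l2 (-1.47), Mafk (-0.85) and Ubqln4 (-0.74) higher in replicate 2 on the log2 scale. With the GC and length trend removed, Usp14 (0.05), Ngly1 (0.43) and Ubqln4 (-0.48) were no longer past it. Sem1 (from 0.14 to -0.75) and Pomp (from 0.57 to 0.64) were then past it, so 5 of the 26 were, against 29.9% of all genes. Nfe2l2 was thus higher in the library in which the median proteasome member was lower. With 2 libraries no relation between them can be tested.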

How the data were processed

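RNA-seq of polyadenylated RNA gave 2 libraries of the same stimulated group. The authors deposited, per library, a gene table and 2 transcript tables on mm10 with GENCODE M21, per the file headers and accompanying notes. Their columns are those that RSEM writes and, for the second transcript table, those that kallisto writes. The sources used here do not give the aligner, the versions or the use of strand in counting. As deposited, expected counts are fractional read estimates per gene or transcript, with shared reads divided among genes and no normalization. TPM, as deposited, corrects for length and gives each library the same sum. Deposited FPKM values are scaled to length and to mapped fragments, and served in 1 alternative. The deposited percent column gives the share of a gene's TPM in each transcript. Rows that name no gene (26345 tRNA, spike-in and phiX rows) took 0.132% and 0.0883% of the expected counts of replicates 1 and 2 and were left out.

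Class levels, shares and spreads were computed from TPM with no pseudocount. Expected counts were rounded, filtered with filterByExpr and scaled by TMM in edgeR 4.0.16 (R 4.3.3), giving log2 ratios with a prior count of 2. The calculation was checked on counts simulated with counting error only. That check cannot say how repeatable the calls at 1.5-fold are. A ratio was called at 1.5-fold. With 1 library on each side no test was made. DESeq2 1.42.0 size factors were an alternative, and a trend with GC content and length was fitted with mgcv 1.9.3. The 2 libraries were counted as 2 samples, since the labels give separate biosamples. Their files are not copies of each other, with a mean chi-square of 324.7 per gene between their counts, but separate preparations of the same culture could give this too. The intercept-only biological coefficient of variation was 0.319. Member roles, the other gene lists, the motifs and the thresholds were chosen with earlier results of these data known. All 45 members are named by class, with the highest and lowest of each class, those past 1.5-fold and those led by a non-coding transcript. From the further pathway genes, the highest, the lowest, those with a place in the complex, those past 1.5-fold, and Vcp and Nfe2l1 are named, the last 2 chosen after their values were seen. Exonic overlaps, neighbours and shared 31-base words come from GENCODE M21. Promoter windows come from RefSeq (GRCm38.p6), matched by symbol for 37 members, and windows were searched on both strands.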

Additional observations from a re-analysis of the deposited data

How the results depend on the processing

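Of 24 values of levels, counts, shares and spreads under other quantifications, scalings or member sets, 16 moved by less than the SD between the libraries (a count by less than 1.5-fold) and 8 by more, and no value past 1.5-fold changed direction. FPKM in place of TPM gave a median of 41.5 FPKM, against 63.6 TPM. Rescaling TPM over nuclear protein-coding genes gave class medians of 178 TPM for the alpha ring, 87.3 for the ATPases, 91.0 for the non-ATPases and 12.7 for the assembly factors, and a share of TPM in the members of 0.460%. The second quantification gave an alpha-ring median of 119 TPM, where Psma3 was lower, and a coding share of 88.8%, against 91.6%. Its mean TPM was within 1.5-fold of the first for 42 of 44 members, the exceptions being Psma3 at 0.572 and Psme2b at 1.96 of the first. Without either library in turn, the median of the members was 52.3 or 74.9 TPM, and 11 or 13 members were at 100 TPM.

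Between the libraries, 8 members were past 1.5-fold with the GC and length trend removed, and from 10 to 17 under the other 6 alternatives, against 14. Scaling to total counts gave a median log2 ratio of 0.42 over the members and 0.19 over all genes, and TPM ratios gave 0.41 and 0.15, so both shift all genes towards replicate 1. Relative to the median of all genes the members stayed at 0.13 to 0.26. No paired analysis was possible because there is 1 group. Among the standard members Psmg1 to Psmg4 rest on the fewest reads, 88 to 167 expected counts per library.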
